A study of Homo sapiens with 18 samples.

Results

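The genes described here encode the cornified envelope and the skin barrier. All 42 were chosen by name for their known roles, with earlier results of these data known. They are 6 S100-fused filament-associated proteins, 12 envelope precursors, 3 transglutaminases, 9 proteases, 3 protease inhibitors, 3 barrier lipid genes and 6 other secreted, calcium-binding or adhesion proteins, out of 58735 annotated genes in the count table. Keratins and desmosomal genes are not among them. RNA was sequenced from HaCaT, an immortal line of skin keratinocytes, and from TIGK, a gingival (gum) keratinocyte line immortalised with telomerase, in cells left unscratched (0 h) or taken 6 h or 24 h after scratching, with 3 libraries in each of 6 groups. Each cell type is represented by 1 immortal line, so a difference between the lines cannot be told apart from a difference between skin and gingiva. Unscratched cells kept for 6 h or 24 h were not analysed here, so the scratch itself and the hours in culture cannot be told apart. Nothing in the labels says that the 3 libraries of a group came from separate cultures, so the p-values speak of library-to-library spread alone, possibly a technical one.

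The cornified envelope is a shell of cross-linked protein that replaces the plasma membrane of keratinocytes as they die at the surface of a stratified epithelium. Plakins, involucrin and small proline-rich proteins are laid down first, transglutaminases join them by isopeptide bonds, loricrin and filaggrin-type proteins reinforce the shell, and lipids made with the help of lipoxygenases are attached to its outside. Kallikrein proteases then cut the junctions between the dead cells so that they are shed, under the control of secreted inhibitors, and gingiva and skin differ in how far this program runs.

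Libraries held 14238090 to 25011331 counted reads. Levels are given as CPM, counts scaled to a common library size after TMM normalisation, and levels of different genes are compared only as FPKM, the authors' value per kilobase of gene. A count of 3 in 1 library corresponds to 0.113 to 0.205 CPM. In TIGK, the 0 h C and 6 h C libraries listed more genes than the other 16 (26246 and 25161 against 21164 to 22799). The letters name columns within a line and time. At 24 h the C library was the highest of its 3 for 27 of the 39 tested members in HaCaT and for 25 of 39 in TIGK, 69.2% and 64.1%, where it was the highest for 31.7% and 36.1% of 15887 genes at 1 CPM or more in at least 3 libraries. A listed keratinocyte marker set summed to 35764 to 40205 CPM in HaCaT and 30339 to 40479 in TIGK. Of 6 fibroblast markers, COL1A1 carried most of a sum of 20.9 to 40.5 CPM in HaCaT, where the means of DCN were at most 0.612 CPM. COL1A1 and DCN together carried most of a sum of 235 to 434 CPM in TIGK. LUM means were at most 0.0424 CPM in HaCaT and 2.30 to 4.72 CPM in TIGK. The means of COL1A2 and PDGFRA were at most 0.218 CPM in every group, and PDGFRA held no count in HaCaT. The fibroblast sum therefore moved with the line, and its part in the line differences below was not tested. Melanocyte markers summed to 1.84 to 4.70 CPM, immune markers to at most 0.752 CPM and endothelial markers to 1.62 to 8.15 CPM over all libraries. In bulk RNA, fewer cells that express a gene and less RNA per cell cannot be told apart.

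Most of these genes were higher in HaCaT than in TIGK, at each time. At 0 h, 27 of the 39 members that could be tested were higher in HaCaT and 4 were lower, against 62.6% of all 17409 tested genes called in either direction (29.3% higher and 33.3% lower). Calls are at a false discovery rate under 0.05 in edgeR's two-sided quasi-likelihood test, with Benjamini-Hochberg adjustment over all tested genes. The member counts were 24 higher and 7 lower at 6 h, against 62.6% of all genes (29.8% higher and 32.8% lower), and 25 higher and 5 lower at 24 h, against 61.7% (28.6% higher and 33.1% lower). The median log2 fold change over the tested members, HaCaT over TIGK, was 1.88, 1.67 and 1.42 at 0, 6 and 24 h, where the median over all tested genes was -0.038, -0.0215 and -0.0496. The same 23 members were higher in HaCaT at all 3 times, and 4 members, SPRR3, SBSN, DMKN and CALML3, were lower at all 3. TGM1 was called in both directions at different times. SPRR2A, CNFN, TGM3, TGM5 and KLK6 were called at none. LOR, CRNN and CDSN had too few reads to be tested. Of the 39 tested members, 28 reached the low-count limit in both lines, 7 in HaCaT only, 2 in TIGK only and 2 in no group's 3 libraries together. The 7 were FLG2, HRNR, SPRR2A, SPRR4, CASP14, SPINK6 and CALML5. Those of TIGK were CST6 and CALML3, and the last 2 were RPTN and TGM5. Members that passed through the line where they were higher were favoured to be called, although SPRR2A, which passed in HaCaT only, was not, and the counts above describe the members and are not a test of them as a group.

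**Figure D1:**
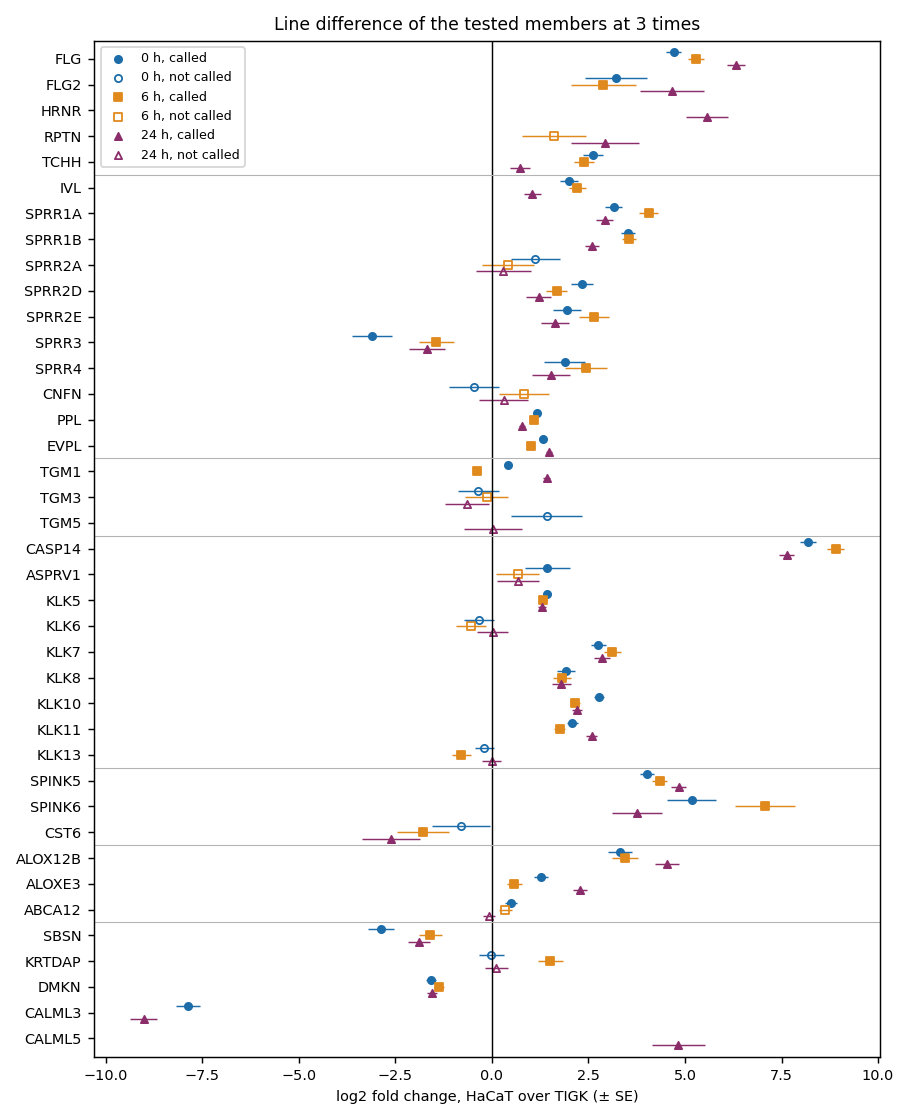
Log2 fold change of HaCaT over TIGK (x axis, ± SE) for the 39 tested members, top to bottom by role class, at 0 h (circles), 6 h (squares) and 24 h (triangles), from the model fitted to all 18 libraries; filled symbols were called and open symbols were not, and no point is drawn where a group held 3 counts or fewer in all. Most symbols lie right of 0 at all 3 times, while SPRR3, SBSN, DMKN and CALML3, called lower at each time, lie left of it. So do CST6, called at 6 h and 24 h, KLK13, called at 6 h alone, and TGM3, not called.

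Per unit of gene length, the small proline-rich gene SPRR1B was the most abundant member in both lines. It averaged 484 ± 76.3 FPKM in HaCaT and 42 ± 5.88 FPKM in TIGK at 0 h (mean ± SD, n = 3 in this and every such pair). After it in HaCaT came SPRR1A at 147 ± 43.1, PPL at 58.7 ± 3.5, KLK10 at 46.8 ± 4.44, KLK5 at 40.6 ± 4.11, EVPL at 35.4 ± 0.586, CASP14 at 29.1 ± 2.05, TGM1 at 19.6 ± 1.68 and SPINK6 at 13.5 ± 4.14 FPKM. The gene model of SPRR1A in the table is 270 bases long, which bears on its FPKM. In TIGK the order after SPRR1B was PPL at 26.3 ± 2.27, CALML3 at 21.7 ± 5.26, SPRR1A at 16.5 ± 1.93, DMKN at 15.3 ± 0.736, KLK5 at 15 ± 0.472, TGM1 at 14.7 ± 0.704 and EVPL at 14.1 ± 1.58 FPKM. Members at 1 FPKM or more numbered 28 in each HaCaT group and 23, 23 and 24 in TIGK at 0, 6 and 24 h. The summed level of all 42 members was 1585 to 2082 CPM in HaCaT libraries and 665 to 845 CPM in TIGK libraries, with no overlap. This sum is not scaled by gene length and weighs members by their reads. The highest group means were 483 CPM for PPL, 307 for SPRR1B and 292 for EVPL. SPRR3, SBSN, DMKN and CALML3 were lower in HaCaT at each time.

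The S100-fused proteins sit in the outer layers of cornifying cells, where they bundle keratin and reinforce the shell. All 5 tested members were higher in HaCaT at 0 h and at 24 h, and 4 of 5 at 6 h. Of all tested genes, 28.6% to 29.8% were higher. FLG2 and HRNR reached the low-count limit in HaCaT only, which favoured a call of higher. RPTN reached it in no group's 3 libraries together. FLG (chr 1, 152302175 to 152325203), filaggrin, which bundles keratin filaments and is broken down into the moisturising factor of the skin, stood at 38.8, 35.3 and 37.2 CPM in HaCaT at 0 h, 38.9, 41.6 and 43.5 at 6 h and 47.6, 53.1 and 55.3 at 24 h. TIGK libraries held FLG at 0.676, 2.02 and 1.48 CPM at 0 h, 1.33, 1.07 and 0.819 at 6 h and 0.786, 0.784 and 0.342 at 24 h. Every HaCaT library lay above every TIGK library at each time. The log2 fold change over TIGK was 4.71 ± 0.20 (adjusted p = 2.97e-16) at 0 h, 5.28 ± 0.21 (adjusted p = 1.21e-16) at 6 h and 6.32 ± 0.23 (adjusted p = 1.77e-17) at 24 h, each given ± SE. TCHH (chr 1, 152106317 to 152115454), trichohyalin, a protein of hair-follicle sheath and tongue papillae, stood at 7.95, 7.43 and 9.92 CPM in HaCaT at 0 h, 9.46, 7.94 and 7.79 at 6 h and 4.13, 3.21 and 3.39 at 24 h. TIGK libraries held TCHH at 0.86, 1.27 and 1.85 CPM at 0 h, 2.0, 1.5 and 1.31 at 6 h and 1.77, 2.61 and 2.12 at 24 h. HaCaT libraries were the higher ones at each time, and the gap was narrowest at 24 h, when the HaCaT libraries were at their lowest. The fold change was 2.62 ± 0.26 (adjusted p = 3.63e-09) at 0 h, 2.39 ± 0.26 (adjusted p = 1.83e-08) at 6 h and 0.72 ± 0.26 (adjusted p = 0.0209) at 24 h. The last of these was no longer called without the A library of HaCaT or of TIGK at 24 h (0.60, adjusted p = 0.0858, and 0.59, adjusted p = 0.0898), or without both 24 h C libraries (0.75, adjusted p = 0.0593).

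HRNR (chr 1, 152212082 to 152224193), hornerin, a filaggrin-like repeat protein, stood at 3.33, 3.9 and 4.06 CPM in HaCaT at 0 h, 1.27, 1.89 and 1.83 at 6 h and 5.78, 6.48 and 4.44 at 24 h. TIGK libraries held HRNR at 0 CPM in all 3 at 0 h and in all 3 at 6 h, and at 0.262, 0.0653 and 0 at 24 h. Reads for hornerin were thus seen in TIGK at 24 h alone, with 5 in total. Against 3 counts in each TIGK library, HRNR was at least 24.0-fold higher in HaCaT at 0 h and at least 9.05-fold higher at 6 h (adjusted p = 4.05e-09 and 2.98e-07). At 24 h the difference was 5.56 ± 0.54 (adjusted p = 1.59e-08), and 7.08 without the A library of TIGK. FLG2 (chr 1, 152348735 to 152360006), filaggrin-2, stood at 1.15, 0.867 and 0.998 CPM in HaCaT at 0 h, 0.572, 0.978 and 0.792 at 6 h and 1.53, 2.39 and 3.39 at 24 h. TIGK libraries held FLG2 at 0.123, 0.115 and 0.0756 CPM at 0 h, 0, 0 and 0.273 at 6 h and 0, 0.261 and 0 at 24 h. All HaCaT libraries exceeded all TIGK libraries, which held 4 to 6 counts per group. Fold changes of FLG2 were 3.22 ± 0.81 (adjusted p = 0.00127), 2.88 ± 0.85 (adjusted p = 0.00487) and 4.67 ± 0.83 (adjusted p = 2.9e-05) at 0, 6 and 24 h. The values at 6 h and 24 h moved to 6.69 and 8.33 without the C library of TIGK at 6 h and the B library of TIGK at 24 h, the only libraries of their groups with a count. Fitted values against groups with so few reads, here and for HRNR, SPINK6, CALML5 and CALML3, depend on the prior count and are neither exact nor bounds. RPTN (chr 1, 152153595 to 152159228), repetin, stood at 0.897, 0.433 and 1.19 CPM in HaCaT at 0 h, 0.508, 0.0611 and 0.792 at 6 h and 0.572, 0.477 and 1.11 at 24 h. TIGK libraries held RPTN at 0.0615, 0 and 0.0378 CPM at 0 h, 0.20, 0.188 and 0.0546 at 6 h and 0.131, 0.0653 and 0.0684 at 24 h. TIGK held 2, 7 and 4 counts of repetin at 0, 6 and 24 h, and the groups overlapped at 6 h. RPTN was called at 0 h (adjusted p = 0.000286) and at 24 h (2.92 ± 0.88, adjusted p = 0.00565), not at 6 h (1.61 ± 0.83, adjusted p = 0.0952). Without both 24 h C libraries the 24 h value was 2.34 (adjusted p = 0.0814). CRNN, cornulin, known from oesophageal and oral epithelium, was not tested and held 24 counts in all HaCaT libraries together and 6 in TIGK. The antisense gene FLG-AS1 overlaps FLG, FLG2, HRNR and CRNN and held 657 reads over the 18 libraries, where FLG held 6318, FLG2 212, HRNR 520 and CRNN 30. The overlap is of whole gene spans, and exons were not compared. The sources used here do not state whether counting used strand. Some reads may therefore be uncertain between these genes and FLG-AS1, and how many was not tested.

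Among the envelope precursors, 8 of 11 tested members were higher in HaCaT and 1 was lower at each time. Of all tested genes, 28.6% to 29.8% were higher and 32.8% to 33.3% lower at these times. SPRR1B (chr 1, 153031202 to 153032900), a small proline-rich protein, or cornifin, that bridges other envelope proteins, stood at 251, 346 and 319 CPM in HaCaT at 0 h, 319.8, 246 and 354 at 6 h and 283, 267 and 339.6 at 24 h. TIGK libraries held SPRR1B at 24, 30.8 and 24.6 CPM at 0 h, 27.1, 29 and 22.8 at 6 h and 38.9, 40.3 and 69.2 at 24 h. The lines did not overlap, and the TIGK libraries at 24 h were the highest of that line. The fold change between lines was 3.53 ± 0.18 (adjusted p = 2.57e-14), 3.55 ± 0.19 (adjusted p = 2.7e-14) and 2.59 ± 0.18 (adjusted p = 4.26e-12) at 0, 6 and 24 h. SPRR1A (chr 1, 152985231 to 152985500), its close relative, stood at 30.0, 53.5 and 37.9 CPM in HaCaT at 0 h, 60.3, 45.8 and 70.0 at 6 h and 60.0, 49.1 and 82.5 at 24 h. TIGK libraries held SPRR1A at 4.55, 3.98 and 5.03 CPM at 0 h, 3.26, 4.57 and 2.78 at 6 h and 7.4, 7.97 and 10.1 at 24 h. Each HaCaT library exceeded each TIGK library. SPRR1A differed by 3.15 ± 0.23 (adjusted p = 1.07e-11), 4.06 ± 0.24 (adjusted p = 2.47e-13) and 2.92 ± 0.22 (adjusted p = 1.97e-11) at 0, 6 and 24 h. Of the 50-base stretches of SPRR1A's transcripts 11.3% also occur in another gene, all of them in SPRR1B, so part of its reads may be uncertain.

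PPL (chr 16, 4882507 to 4960741), periplakin, a plakin of the scaffold on which the envelope is assembled, stood at 486, 434 and 458 CPM in HaCaT at 0 h, 414, 423 and 402 at 6 h and 466, 493 and 489.7 at 24 h. TIGK libraries held PPL at 206, 188 and 223 CPM at 0 h, 192, 188 and 207 at 6 h and 310.5, 287 and 245 at 24 h. HaCaT libraries were higher throughout, by less than for SPRR1A and SPRR1B. Its fold change was 1.16 ± 0.08 (adjusted p = 8.24e-12), 1.08 ± 0.08 (adjusted p = 3.38e-11) and 0.78 ± 0.08 (adjusted p = 9.64e-09). EVPL (chr 17, 76004502 to 76027452), envoplakin, the partner of periplakin in that scaffold, stood at 270.5, 275 and 265 CPM in HaCaT at 0 h, 239, 231 and 223 at 6 h and 283, 315 and 279 at 24 h. TIGK libraries held EVPL at 103, 98.1 and 121 CPM at 0 h, 116, 111 and 117 at 6 h and 104, 98.7 and 112 at 24 h. The 9 HaCaT libraries lay above the 9 TIGK libraries. EVPL differed by 1.33 ± 0.08 (adjusted p = 2.75e-13), 1.01 ± 0.08 (adjusted p = 5.06e-11) and 1.48 ± 0.08 (adjusted p = 4.51e-14) at 0, 6 and 24 h. IVL (chr 1, 152908545 to 152911886), involucrin, an early precursor and scaffold protein, stood at 13.8, 14.4 and 16.2 CPM in HaCaT at 0 h, 19.6, 15.3 and 18.1 at 6 h and 11.1, 8.05 and 13 at 24 h. TIGK libraries held IVL at 2.77, 3.0 and 5.07 CPM at 0 h, 3.39, 3.45 and 4.53 at 6 h and 4.26, 4.31 and 6.98 at 24 h. Libraries of the lines did not overlap at any time, and the gap was narrowest at 24 h. The involucrin difference was 2.0 ± 0.23 (adjusted p = 3.94e-08), 2.21 ± 0.23 (adjusted p = 8.79e-09) and 1.05 ± 0.23 (adjusted p = 0.000327).

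The remaining proline-rich genes were less abundant and did not all follow SPRR1B. SPRR3, a proline-rich protein known from oral and oesophageal epithelium, averaged 0.25 ± 0.123, 0.843 ± 0.176 and 0.637 ± 0.395 CPM in HaCaT at 0, 6 and 24 h, and 2.23 ± 0.247, 2.31 ± 0.606 and 2.07 ± 0.956 CPM in TIGK. It was lower in HaCaT, with log2 fold changes of -3.12 ± 0.52 (adjusted p = 1.26e-05), -1.44 ± 0.44 (adjusted p = 0.00673) and -1.69 ± 0.47 (adjusted p = 0.00292) at 0, 6 and 24 h. SPRR2D, a member of the SPRR2 cluster, averaged 9.85 ± 3.54, 7.9 ± 1.02 and 3.19 ± 0.283 CPM in HaCaT at 0, 6 and 24 h, and 1.93 ± 0.266, 2.48 ± 0.58 and 1.38 ± 0.60 CPM in TIGK. It was higher in HaCaT at each time, by 2.33 ± 0.28 (adjusted p = 8.6e-08), 1.67 ± 0.28 (adjusted p = 1.16e-05) and 1.21 ± 0.32 (adjusted p = 0.00196). SPRR2E and SPRR4 were higher in HaCaT at each time too, by 1.53 to 2.64 on the log2 scale. Of these, SPRR4 at 24 h was not called without the C library of HaCaT or the A library of TIGK at 24 h (1.01, adjusted p = 0.114, and 1.26, adjusted p = 0.0514), and it stood at 2.20 without the C library of TIGK. SPRR2A and the cornified-layer protein CNFN were not called, at 0.811 to 1.86 CPM and 0.914 to 1.57 CPM in HaCaT means and 0.655 to 0.854 CPM and 0.823 to 1.28 CPM in TIGK means. SPRR2A, SPRR2D and SPRR2E share 32.7%, 19.3% and 23.4% of their 50-base stretches with other genes, mostly of the same cluster, so reads may be split among them. LOR, loricrin, the major protein of the mature epidermal envelope, held 54 reads in HaCaT and 40 in TIGK over 9 libraries each and was not tested.

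SPRR1A, SPRR3 and SPRR1B follow one another on chromosome 1 with no other annotated protein-coding gene between them, and the middle one differed between the lines in the opposite direction to its neighbours. Their promoters are shown with that of FLG, the gene of the set called in opposite directions in the lines at 24 h against 0 h. Its call in TIGK rested on 29 counts at 24 h and 85 at 0 h, and was lost without some single libraries. Each sequence is the 250 bases before the RefSeq start (GRCh38.p14), 5′ to 3′ on the gene's strand. Capitals mark matches to TGANTCA, the AP-1 motif, to TTGCNNAA, a C/EBP motif, and to the TATA box TATAAA.
SPRR1A, chr1:152983831-152984080, plus strand: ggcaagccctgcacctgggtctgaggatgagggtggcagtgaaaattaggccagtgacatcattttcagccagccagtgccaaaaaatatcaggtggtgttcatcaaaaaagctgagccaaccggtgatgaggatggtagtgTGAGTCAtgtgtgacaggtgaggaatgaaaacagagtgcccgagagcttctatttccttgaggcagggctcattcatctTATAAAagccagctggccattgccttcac
SPRR3, chr1:153001499-153001748, plus strand: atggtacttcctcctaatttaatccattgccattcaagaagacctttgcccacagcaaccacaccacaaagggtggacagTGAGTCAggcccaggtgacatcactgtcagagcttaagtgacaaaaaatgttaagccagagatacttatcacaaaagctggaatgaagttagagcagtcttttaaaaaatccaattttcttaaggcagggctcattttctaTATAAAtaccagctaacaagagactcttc
SPRR1B, chr1:153030953-153031202, plus strand: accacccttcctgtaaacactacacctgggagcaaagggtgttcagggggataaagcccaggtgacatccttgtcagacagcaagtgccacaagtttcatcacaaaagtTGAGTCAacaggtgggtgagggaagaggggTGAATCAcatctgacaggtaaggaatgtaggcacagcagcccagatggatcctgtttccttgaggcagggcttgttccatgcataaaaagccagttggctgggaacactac
FLG, chr1:152325240-152325489, minus strand: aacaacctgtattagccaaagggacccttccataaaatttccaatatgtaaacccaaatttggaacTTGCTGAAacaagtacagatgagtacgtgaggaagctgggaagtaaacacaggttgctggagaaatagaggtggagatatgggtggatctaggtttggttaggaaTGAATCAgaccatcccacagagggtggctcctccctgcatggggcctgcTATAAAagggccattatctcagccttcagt
The AP-1 letters begin 108 bases before the start in SPRR1A, 170 in SPRR3, 141 and 111 in SPRR1B and 79 in FLG, and the 3 genes other than SPRR1B also hold TATAAA 29 or 30 bases before the start. FLG holds TTGCNNAA as well, 184 bases before it. SPRR3, lower in HaCaT, and SPRR1A, higher in HaCaT, carried the same 2 kinds of match. The RefSeq start of SPRR1A lies upstream of its gene model in the count table, and that of CALML3, shown further on, lies within its model. RefSeq windows were matched by symbol for 34 of 42 members (48 windows). CST6, EVPL, KLK8, LOR, PPL, SPRR2D, SPRR2E and TGM1 had none. Searched on both strands, TGANTCA, which reads the same on both, was found for 15 of the 34 (44.1%) and for 8.06% of all 27305 genes with a window. TATAAA was found for 13 of 34 (38.2%) and for 13.0% of all genes, TTGCNNAA for 7 (20.6%) and 11.0%, and AACCNGTT, the grainyhead motif, for 3 (8.82%) and 1.85%. No match to one motif overlapped a match to another in the members' windows. Of the 12 chromosome 1 members with a window, 10 held TGANTCA, against 0 of the 6 kallikreins. A match is a run of letters in this window and says nothing about whether a factor binds there.

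Transglutaminases cross-link the precursors, and TGM1 was the single one of the 3 that was called between lines. TGM1 (chr 14, 24249114 to 24264432), the membrane-bound transglutaminase of keratinocytes, whose loss causes lamellar ichthyosis, stood at 79.6, 76.8 and 67.3 CPM in HaCaT at 0 h, 54.2, 50.8 and 48.3 at 6 h and 158, 157 and 166 at 24 h. TIGK libraries held TGM1 at 55.4, 53.4 and 58.6 CPM at 0 h, 73.6, 66.2 and 59.7 at 6 h and 63.2, 52.6 and 64.1 at 24 h. HaCaT libraries were above TIGK libraries at 0 h and 24 h and below them at 6 h, with no overlap at any time. Over TIGK, TGM1 differed by 0.42 ± 0.09 (adjusted p = 0.000332) at 0 h, -0.38 ± 0.09 (adjusted p = 0.000995) at 6 h and 1.42 ± 0.09 (adjusted p = 1.53e-12) at 24 h. TGM5 (chr 15, 43232595 to 43266857), a transglutaminase of the upper epidermis, stood at 0.0641, 0.929 and 0.25 CPM in HaCaT at 0 h, 0.127, 0.122 and 0.67 at 6 h and 0.89, 0.955 and 0.587 at 24 h. TIGK libraries held TGM5 at 0.307, 0 and 0.151 CPM at 0 h, 0.0665, 0 and 0.109 at 6 h and 0.851, 0.522 and 1.03 at 24 h. No call was made between the lines, with 3 to 36 counts in each TIGK group and 15 to 37 in each HaCaT group. TGM3, the epidermal transglutaminase activated by cleavage, averaged 1.21 ± 0.275, 0.961 ± 0.483 and 0.702 ± 0.114 CPM in HaCaT at 0, 6 and 24 h, and 1.56 ± 0.901, 1.06 ± 0.19 and 1.1 ± 0.977 CPM in TIGK. Its differences between lines did not pass the test (-0.35 ± 0.53, adjusted p = 0.579, -0.14 ± 0.55, adjusted p = 0.842 and -0.65 ± 0.58, adjusted p = 0.343 at 0, 6 and 24 h).

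Proteases break down filaggrin and cut the junctions between dead cells, and 7 of the 9 were higher in HaCaT and none lower at 0 h. At 6 h 6 were higher and 1 lower, and at 24 h 6 were higher and none lower. Over the 3 times 28.6% to 29.8% of all tested genes were higher and 32.8% to 33.3% lower. CASP14 (chr 19, 15049384 to 15058293), a caspase of cornification that takes part in filaggrin breakdown, stood at 101, 98 and 112 CPM in HaCaT at 0 h, 113, 116 and 103 at 6 h and 150.02, 152 and 149.5 at 24 h. TIGK libraries held CASP14 at 0.492, 0.115 and 0.416 CPM at 0 h, 0.399, 0.313 and 0 at 6 h and 0.72, 0.588 and 0.957 at 24 h. HaCaT libraries held at least 98.0 CPM and TIGK libraries at most 0.957 CPM. The log2 fold change was 8.18 ± 0.21 (adjusted p = 2.78e-20), 8.9 ± 0.23 (adjusted p = 3.34e-20) and 7.63 ± 0.19 (adjusted p = 3.98e-20) at 0, 6 and 24 h. The 6 h value ranged from 8.25 without the C library of TIGK at 6 h, which held no count, to 9.50 without its A library. KLK10 (chr 19, 51012739 to 51020175), a kallikrein, stood at 197, 189 and 164 CPM in HaCaT at 0 h, 165, 168 and 162 at 6 h and 132, 123 and 136 at 24 h. TIGK libraries held KLK10 at 33.5, 25 and 22.4 CPM at 0 h, 41.9, 38.3 and 30.8 at 6 h and 24, 30.4 and 31.1 at 24 h. The lowest HaCaT library held 123 CPM and the highest TIGK library 41.9 CPM. KLK10 differed by 2.77 ± 0.13 (adjusted p = 2.37e-15), 2.16 ± 0.13 (adjusted p = 1.86e-13) and 2.2 ± 0.13 (adjusted p = 1.97e-13).

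KLK5 (chr 19, 50943303 to 50953093), a trypsin-like kallikrein that starts the shedding cascade, stood at 64.3, 76.5 and 63.9 CPM in HaCaT at 0 h, 74.8, 72 and 79.2 at 6 h and 71.2, 65.7 and 72 at 24 h. TIGK libraries held KLK5 at 24.4, 26.1 and 25.3 CPM at 0 h, 26.4, 34.1 and 29.2 at 6 h and 27.7, 26.9 and 30.3 at 24 h. Its libraries kept apart by line at every time. The fold change of KLK5 was 1.43 ± 0.10 (adjusted p = 3.92e-12), 1.33 ± 0.10 (adjusted p = 1.42e-11) and 1.3 ± 0.10 (adjusted p = 2.77e-11) at 0, 6 and 24 h. KLK7 (chr 19, 50976482 to 50984099), a chymotrypsin-like kallikrein that KLK5 activates, stood at 14.4, 19.9 and 16.1 CPM in HaCaT at 0 h, 17.8, 15.5 and 18.7 at 6 h and 15.3, 18.2 and 20.6 at 24 h. TIGK libraries held KLK7 at 2.64, 2.94 and 1.97 CPM at 0 h, 2.06, 1.94 and 1.97 at 6 h and 2.16, 1.96 and 3.42 at 24 h. HaCaT libraries exceeded TIGK libraries throughout. KLK7 was higher by 2.76 ± 0.20 (adjusted p = 1.44e-11), 3.12 ± 0.21 (adjusted p = 3.44e-12) and 2.84 ± 0.21 (adjusted p = 1.4e-11). KLK11 (chr 19, 51022216 to 51028039), another epidermal kallikrein, stood at 19.6, 20.1 and 19.8 CPM in HaCaT at 0 h, 15.7, 13.6 and 14.7 at 6 h and 24.3, 24.1 and 24.7 at 24 h. TIGK libraries held KLK11 at 4.92, 4.15 and 4.95 CPM at 0 h, 4.66, 4.39 and 3.99 at 6 h and 3.6, 3.79 and 4.79 at 24 h. The lines did not overlap. KLK11 differed by 2.08 ± 0.14 (adjusted p = 2.54e-12), 1.76 ± 0.14 (adjusted p = 1.08e-10) and 2.58 ± 0.14 (adjusted p = 8.82e-14) at 0, 6 and 24 h. KLK8 was higher in HaCaT by 1.80 to 1.92, with 34.1% of its 50-base stretches shared with an overlapping readthrough gene. KLK13 was lower in HaCaT at 6 h (-0.79 ± 0.24, adjusted p = 0.0065), at 4.13 ± 0.715 CPM in HaCaT against 7.15 ± 1.13 in TIGK, and was not called at 0 h or 24 h. KLK6 was not called at any time. ASPRV1, the retroviral-like protease that cleaves profilaggrin, was higher in HaCaT at 0 h (1.44 ± 0.58, adjusted p = 0.034). That call did not hold without the B library of HaCaT or the A, B or C library of TIGK at 0 h, taken in turn (1.21 to 1.54, adjusted p = 0.0578 to 0.116).

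Both SPINK genes, whose products inhibit the kallikreins, were higher in HaCaT, and the cathepsin inhibitor CST6 was lower at 6 h and 24 h. SPINK5 (chr 5, 148025683 to 148137289), which encodes LEKTI, the inhibitor lost in Netherton syndrome, stood at 31.6, 29.9 and 29.4 CPM in HaCaT at 0 h, 24.3, 24 and 27.4 at 6 h and 49.6, 48.1 and 53 at 24 h. TIGK libraries held SPINK5 at 2.15, 1.5 and 1.93 CPM at 0 h, 0.998, 1.32 and 1.36 at 6 h and 1.44, 1.11 and 2.74 at 24 h. HaCaT libraries held 24.0 CPM or more and TIGK libraries 2.74 CPM or less. SPINK5 was higher by 4.02 ± 0.18 (adjusted p = 1.6e-15), 4.35 ± 0.20 (adjusted p = 2.17e-15) and 4.84 ± 0.19 (adjusted p = 9.74e-17) at 0, 6 and 24 h. SPINK6 (chr 5, 148202794 to 148215137), an inhibitor of kallikreins, stood at 6.54, 12.4 and 11.3 CPM in HaCaT at 0 h, 12.3, 8.68 and 14.9 at 6 h and 5.34, 3.61 and 7.57 at 24 h. TIGK libraries held SPINK6 at 0.737, 0.0577 and 0.113 CPM at 0 h, 0.20, 0 and 0.0546 at 6 h and 0, 0 and 1.23 at 24 h. No TIGK library reached the lowest HaCaT library. Fold changes of SPINK6 were 5.17 ± 0.64 (adjusted p = 1.49e-07), 7.07 ± 0.78 (adjusted p = 2.54e-08) and 3.76 ± 0.65 (adjusted p = 2.05e-05). They rested on few TIGK reads: without the A library of TIGK the 0 h and 6 h values were 6.67 and 8.35, and at 24 h the value was 9.52 without its C library and 3.17 without its A or B library. CST6 (chr 11, 66011841 to 66013505), cystatin M/E, stood at 0.32, 0.681 and 0 CPM in HaCaT at 0 h, 0.191, 0.367 and 0.913 at 6 h and 0.254, 0.341 and 0.13 at 24 h. TIGK libraries held CST6 at 0.922, 0.288 and 0.567 CPM at 0 h, 2.26, 1.19 and 1.69 at 6 h and 0.917, 1.37 and 2.26 at 24 h. HaCaT libraries lay below all TIGK libraries at 6 h and 24 h, while the groups overlapped at 0 h. CST6 differed by -0.80 ± 0.74 (adjusted p = 0.357), -1.78 ± 0.67 (adjusted p = 0.0233) and -2.61 ± 0.75 (adjusted p = 0.00392) at 0, 6 and 24 h. The 6 h call did not hold without the A or B library of HaCaT or the A library of TIGK at 6 h (-1.41 to -1.61, adjusted p = 0.0827 to 0.108), and the value was -2.58 without the C library of HaCaT. Without both 24 h C libraries the 24 h value was -1.92 (adjusted p = 0.0831).

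The 3 barrier lipid genes were all higher in HaCaT at 0 h, as were 29.3% of all tested genes. ALOX12B (chr 17, 8072636 to 8087716), the lipoxygenase that first oxidises barrier ceramides, stood at 8.78, 9.29 and 10.7 CPM in HaCaT at 0 h, 9.59, 6.36 and 7.85 at 6 h and 26.8, 30.2 and 31.6 at 24 h. TIGK libraries held ALOX12B at 1.11, 0.981 and 0.832 CPM at 0 h, 0.333, 0.752 and 1.04 at 6 h and 0.524, 0.914 and 2.39 at 24 h. The lines stayed apart, and the HaCaT libraries at 24 h stood above all others. ALOX12B was higher by 3.32 ± 0.31 (adjusted p = 1.31e-09), 3.44 ± 0.34 (adjusted p = 3.06e-09) and 4.54 ± 0.30 (adjusted p = 2.69e-12) at 0, 6 and 24 h, with 5.35 at 24 h without the C library of TIGK. ALOXE3 (chr 17, 8095900 to 8119047), the lipoxygenase that acts on the product of ALOX12B, stood at 12.6, 11.8 and 17.6 CPM in HaCaT at 0 h, 12.1, 10.6 and 11 at 6 h and 25.7, 24.1 and 22.1 at 24 h. TIGK libraries held ALOXE3 at 6.51, 5.88 and 5.03 CPM at 0 h, 8.78, 6.08 and 7.64 at 6 h and 3.73, 6.14 and 4.92 at 24 h. HaCaT was the higher line at each time, most clearly at 24 h. ALOXE3 differed by 1.28 ± 0.18 (adjusted p = 1.59e-06), 0.58 ± 0.18 (adjusted p = 0.00813) and 2.28 ± 0.19 (adjusted p = 1.58e-10), and the 6 h call did not hold without the B library of TIGK at 6 h (0.46, adjusted p = 0.0526). ABCA12 (chr 2, 214931542 to 215138428), the transporter that loads lipid into lamellar granules, stood at 15.4, 16.8 and 17.8 CPM in HaCaT at 0 h, 11.1, 13.6 and 14.4 at 6 h and 22.6, 22.6 and 26.1 at 24 h. TIGK libraries held ABCA12 at 13.6, 9.4 and 12.3 CPM at 0 h, 8.92, 13.1 and 8.79 at 6 h and 25.7, 26.5 and 23.1 at 24 h. At 0 h HaCaT libraries lay above TIGK libraries, while the lines overlapped at 6 h and 24 h. Its difference was 0.50 ± 0.16 (adjusted p = 0.00735) at 0 h, 0.35 ± 0.16 (adjusted p = 0.0646) at 6 h and -0.08 ± 0.15 (adjusted p = 0.676) at 24 h. The 0 h call did not hold without the B library of TIGK at 0 h (0.36, adjusted p = 0.0605).

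Among the other members, 3 of 5 tested were lower in HaCaT at each time, against 1, 2 and 1 higher at 0, 6 and 24 h. Of all tested genes, 32.8% to 33.3% were lower and 28.6% to 29.8% higher. DMKN (chr 19, 35497220 to 35513658), dermokine, a protein secreted by suprabasal keratinocytes, stood at 35.1, 43.3 and 37.9 CPM in HaCaT at 0 h, 45.3, 32.9 and 48 at 6 h and 29.9, 27.7 and 43.1 at 24 h. TIGK libraries held DMKN at 110.01, 117 and 121 CPM at 0 h, 102, 111 and 114 at 6 h and 93, 89.8 and 113 at 24 h. TIGK held more than any HaCaT library at each time. The log2 fold change of DMKN was -1.58 ± 0.14 (adjusted p = 4.07e-10), -1.37 ± 0.14 (adjusted p = 4.71e-09) and -1.56 ± 0.14 (adjusted p = 7.37e-10) at 0, 6 and 24 h. SBSN (chr 19, 35523367 to 35528351), suprabasin, encoded beside DMKN, stood at 0.897, 0.619 and 0.936 CPM in HaCaT at 0 h, 1.52, 1.22 and 2.98 at 6 h and 1.59, 1.98 and 3.0 at 24 h. TIGK libraries held SBSN at 5.22, 5.13 and 7.72 CPM at 0 h, 4.66, 5.83 and 6.93 at 6 h and 7.6, 8.29 and 8.55 at 24 h. All HaCaT libraries were below all TIGK libraries at each time. SBSN differed by -2.88 ± 0.33 (adjusted p = 4.49e-08), -1.6 ± 0.30 (adjusted p = 4.88e-05) and -1.89 ± 0.29 (adjusted p = 4.45e-06) at 0, 6 and 24 h. KRTDAP (chr 19, 35487324 to 35495558), the keratinocyte differentiation-associated protein, also encoded there, stood at 1.67, 4.33 and 2.87 CPM in HaCaT at 0 h, 6.92, 4.64 and 7.67 at 6 h and 6.42, 6.34 and 7.63 at 24 h. TIGK libraries held KRTDAP at 2.27, 3.63 and 3.06 CPM at 0 h, 2.33, 2.63 and 1.8 at 6 h and 3.8, 5.81 and 9.3 at 24 h. The lines overlapped at 0 h and 24 h, and HaCaT libraries were higher at 6 h. The 6 h difference was 1.51 ± 0.32 (adjusted p = 0.000266), against -0.02 ± 0.33 (adjusted p = 0.966) at 0 h and 0.11 ± 0.30 (adjusted p = 0.767) at 24 h. CDSN, corneodesmosin, held 16 reads in HaCaT and 26 in TIGK and was not tested; it overlaps PSORS1C1, which held 1197.

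The calmodulin-like genes CALML5 and CALML3 lie next to each other on chromosome 10, 24.5 kb apart, and differed between the lines in opposite directions. CALML5 (chr 10, 5498697 to 5499555), the calmodulin-like protein of differentiating skin, stood at 2.37, 5.32 and 3.56 CPM in HaCaT at 0 h, 7.75, 2.44 and 5.66 at 6 h and 3.56, 4.09 and 6.07 at 24 h. TIGK libraries held CALML5 at 0 CPM in all 3 at 0 h, 0, 0.0627 and 0 at 6 h and 0.458, 0 and 0 at 24 h. Counts of CALML5 in TIGK were 0, 1 and 7 at 0, 6 and 24 h, below every HaCaT library. Against 3 counts in each TIGK library it was at least 23.9-fold higher in HaCaT at 0 h (adjusted p = 1.62e-07). At 24 h the difference was 4.82 ± 0.69 (adjusted p = 2.23e-06), and 9.24 without the A library of TIGK, which held all 7 counts. CALML3 (chr 10, 5524009 to 5526771), a calmodulin-like protein of epithelial cells that binds myosin-10, stood at 0.32, 0.186 and 0.25 CPM in HaCaT at 0 h, 0, 0.0611 and 0 at 6 h and 0.191, 0.136 and 0 at 24 h. TIGK libraries held CALML3 at 73.7, 64.1 and 44.9 CPM at 0 h, 92.3, 75 and 60.2 at 6 h and 55.3, 53.6 and 73.4 at 24 h. HaCaT held 12, 1 and 5 counts of CALML3 at 0, 6 and 24 h, and no HaCaT library came near the TIGK level. The fold change was -7.87 ± 0.31 (adjusted p = 1.22e-16) at 0 h and -9.02 ± 0.35 (adjusted p = 9.74e-17) at 24 h, and -9.68 at 24 h without the A library of HaCaT. CALML3-AS1, an antisense gene over CALML3, held 1006 reads, where CALML3 held 9941. The promoters of this pair are shown because the genes are neighbours that differ in opposite directions, with capitals as above.
CALML5, chr10:5499571-5499820, minus strand: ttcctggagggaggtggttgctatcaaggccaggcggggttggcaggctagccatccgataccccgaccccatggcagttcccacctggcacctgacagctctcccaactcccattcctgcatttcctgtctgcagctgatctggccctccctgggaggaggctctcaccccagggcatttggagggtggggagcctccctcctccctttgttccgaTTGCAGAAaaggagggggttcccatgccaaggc
CALML3, chr10:5524711-5524960, plus strand: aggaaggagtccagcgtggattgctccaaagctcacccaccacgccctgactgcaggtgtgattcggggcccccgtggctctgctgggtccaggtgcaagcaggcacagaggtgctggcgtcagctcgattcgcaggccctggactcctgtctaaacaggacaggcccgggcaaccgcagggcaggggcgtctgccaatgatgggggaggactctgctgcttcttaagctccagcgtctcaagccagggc
The CALML5 window holds TTGCNNAA 33 bases before the start, and the CALML3 window holds none of the motifs searched.

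**Figure D2:**
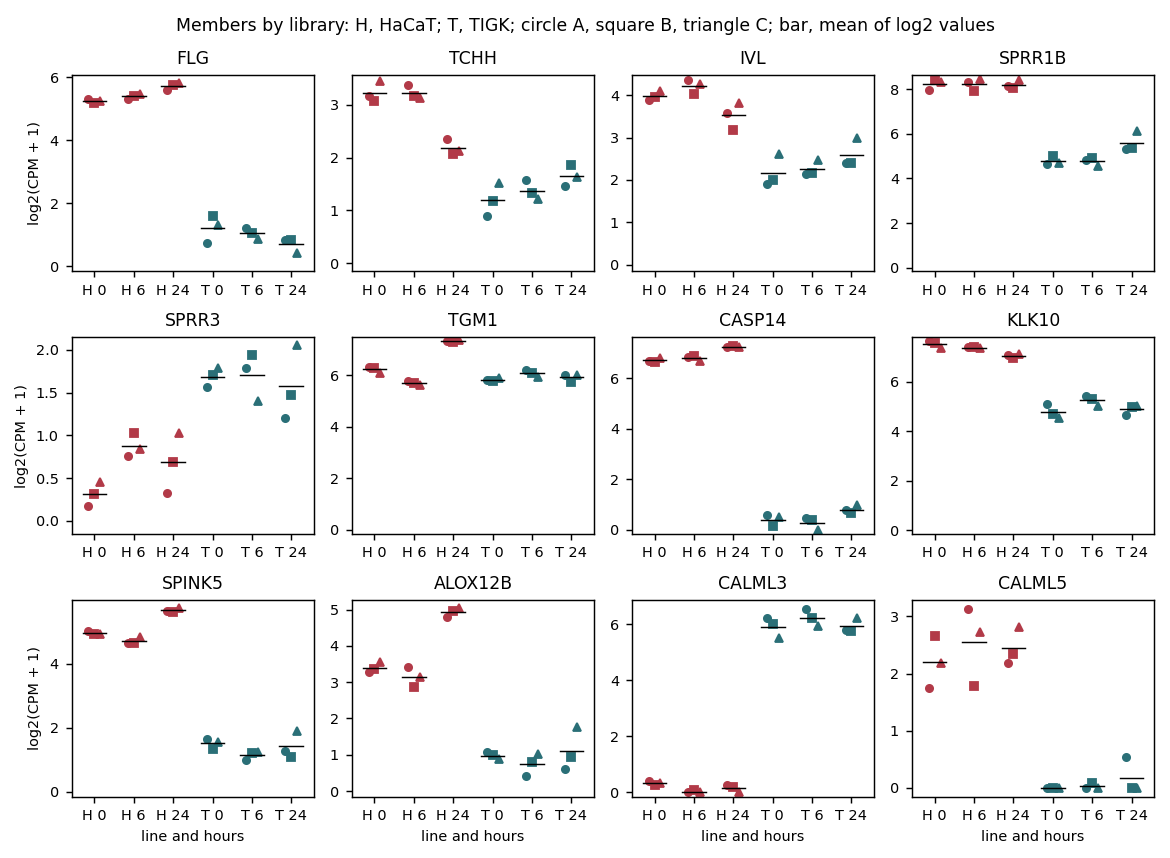
Level of 12 members in each of the 18 libraries, as log2(CPM + 1) on the y axis, by line (H, HaCaT in red; T, TIGK in teal) and hours on the x axis; circles, squares and triangles are the A, B and C libraries and the bar is the mean of the 3 log2 values. FLG, CASP14, SPINK5 and ALOX12B were higher in all HaCaT libraries, CALML3 and SPRR3 in all TIGK libraries of each time, and TGM1 was higher in HaCaT at 0 h and 24 h but not at 6 h.

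Many of the members are neighbours in the genome (coordinates are hg38, and those of all 42 members equal GENCODE release 29). The 15 members on chromosome 1 lie between 152106317 and 153262122, within 1156 kb known as the epidermal differentiation complex. Of the 13 tested there, 11 were higher in HaCaT at 0 h, SPRR3 was lower and SPRR2A was not called. Of all tested genes, 29.3% were higher and 33.3% lower. FLG2, HRNR, SPRR2A and SPRR4 reached the low-count limit in HaCaT only. The 7 kallikreins lie within 122 kb of chromosome 19 (50943303 to 51065114). KLK5, KLK7, KLK8, KLK10 and KLK11 were higher in HaCaT at 0 h, while KLK6, between KLK5 and KLK7, and KLK13 at the end of the row were not called (-0.34 ± 0.39, adjusted p = 0.463 and -0.20 ± 0.24, adjusted p = 0.486). KRTDAP, DMKN and SBSN lie within 41.0 kb of chromosome 19, with DMKN and SBSN lower in HaCaT and KRTDAP not called at 0 h. ALOX12B and ALOXE3, 8.20 kb apart on chromosome 17, were both higher.

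**Figure D3:**
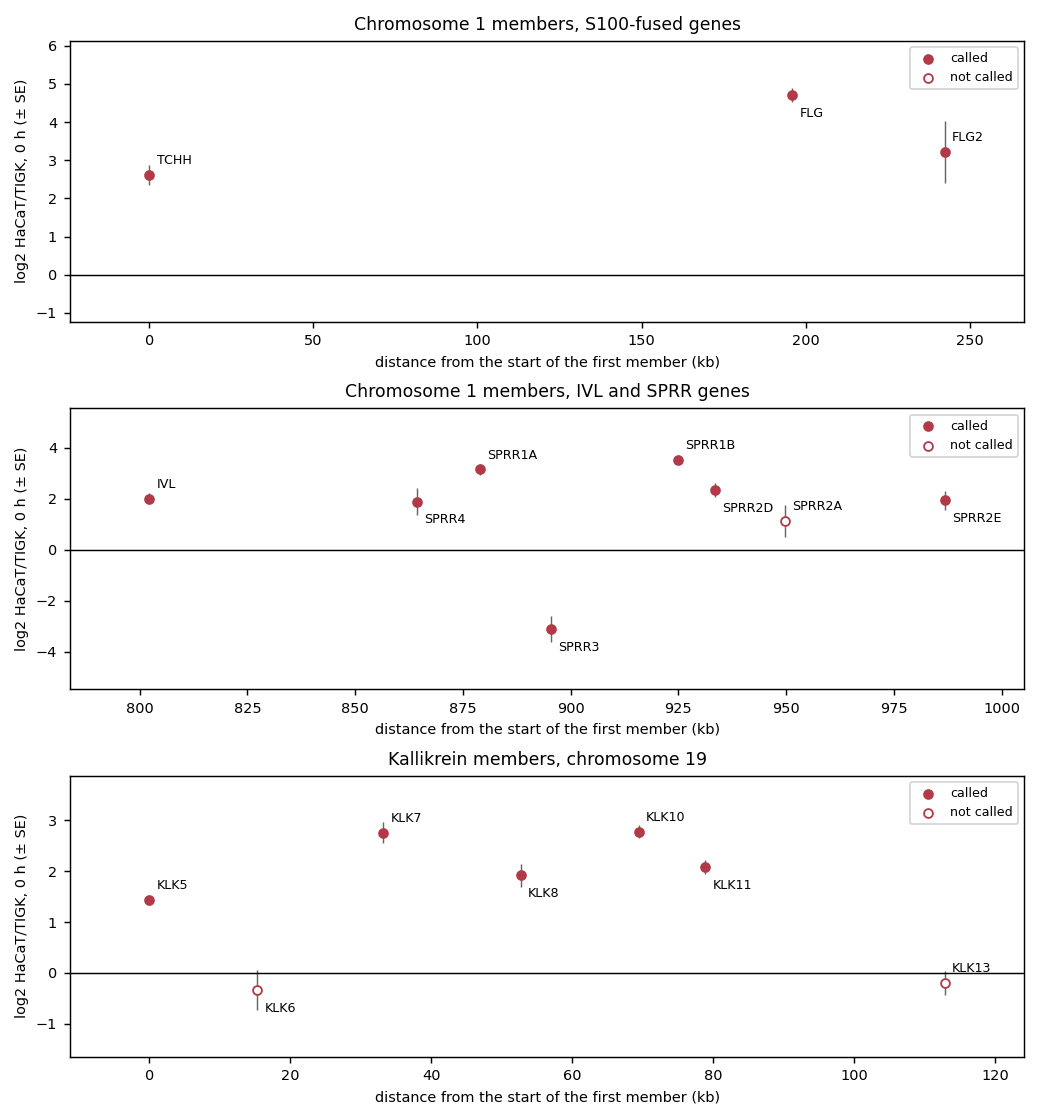
Log2 fold change of HaCaT over TIGK at 0 h (y axis, ± SE) against distance in kb from the start of the first member (x axis) for the tested S100-fused genes and the IVL and SPRR genes of chromosome 1 and for the kallikreins of chromosome 19; filled points were called, and HRNR and RPTN, with 0 and 2 counts in TIGK, are not drawn. SPRR3 is the single called point below 0, between SPRR1A and SPRR1B.

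At 6 h after the scratch 1 member was called in each line, and a missing call does not show that a member was unchanged. In HaCaT, TGM1 was the 1 member called, lower at 6 h, against 0.201% of all tested genes called (0.138% higher and 0.0632% lower). It averaged 51.1 ± 2.99 CPM at 6 h and 74.6 ± 6.42 at 0 h, a log2 change of -0.54 ± 0.09 (adjusted p = 0.00775), with no overlap between the groups. At an unadjusted p under 0.05 there were 10 of 39 members in HaCaT and 5 of 39 in TIGK, where there were 1315 and 2499 of all 17409 tested genes. Besides TGM1, those in HaCaT were SPRR3 (1.72 ± 0.57), SBSN (1.22 ± 0.36), KRTDAP (1.11 ± 0.32) and SPRR1A, higher at 6 h. HRNR (-1.17 ± 0.37), KLK11 (-0.43 ± 0.13), EVPL, ABCA12 and CALML3 were lower. None of these was called (adjusted p = 0.195 to 0.598), and only the SPRR1A groups overlapped. The TGM1 call did not hold without the A or B library of HaCaT at 0 h (-0.49, adjusted p = 0.109, and -0.52, adjusted p = 0.0852) or the C library of HaCaT at 6 h (-0.50, adjusted p = 0.0766). In TIGK, KLK10 was the 1 member called, higher at 6 h, against 3.62% of all genes (2.5% higher and 1.12% lower). Its mean was 37 ± 5.64 CPM at 6 h and 26.9 ± 5.82 at 0 h, a log2 change of 0.46 ± 0.13 (adjusted p = 0.0411), with overlapping groups. The KLK10 call did not hold when any of 11 of the 18 libraries was left out, in turn the A and B libraries of HaCaT at 0 h, A, B and C at 6 h, A and C at 24 h, and of TIGK the B and C libraries at 0 h and A and B at 6 h (0.34 to 0.47, adjusted p = 0.0502 to 0.243). The 6 h response of TGM1 also differed between the lines, by -0.80 ± 0.13 (adjusted p = 0.00213) on the log2 scale, the 1 member of 39 called for that difference, against 0.752% of all genes (0.218% higher and 0.534% lower). With the column letter as a replicate block, 212 genes were called for that difference in place of 131, and TGM1 stood at -0.79 (adjusted p = 0.000877). In TIGK the TGM1 change at 6 h was 0.25 ± 0.09 (adjusted p = 0.16).

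By 24 h HaCaT had changed in 13 of the 39 tested members, 10 higher and 3 lower, against 31.4% of all tested genes called (15.5% higher and 15.9% lower). That is 33.3% of the members, near the share of all genes. Without both 24 h C libraries, left out together after the data were seen, 8 were higher and 6 lower. Fibroblast markers summed to 37.5 to 40.5 CPM at 24 h and 24.4 to 28.8 CPM at 0 h, and their part was not tested. The 3 lipid genes were all higher at 24 h. ALOX12B averaged 29.6 ± 2.48 CPM at 24 h and 9.6 ± 1.01 at 0 h, 3.08-fold higher (1.62 ± 0.24, adjusted p = 9.35e-06 on the log2 scale). ALOXE3 averaged 24 ± 1.82 CPM at 24 h and 14 ± 3.15 at 0 h (0.78 ± 0.17, adjusted p = 0.00108). The transporter gene ABCA12 was higher by 0.51 ± 0.15 (adjusted p = 0.0118), a call that did not hold without the A library at 0 h or the C library at 24 h of HaCaT (0.46, adjusted p = 0.058, and 0.44, adjusted p = 0.0631). Of the cross-linking and scaffold genes, TGM1 was 2.15-fold higher at 24 h, with every 24 h library above every 0 h library (1.1 ± 0.09, adjusted p = 1.05e-09). CASP14 and the inhibitor gene SPINK5 were higher by 0.54 ± 0.11 (adjusted p = 0.000657) and 0.73 ± 0.14 (adjusted p = 0.000246), again with no overlap. SBSN and KRTDAP were 2.66-fold and 2.29-fold higher (1.41 ± 0.36, adjusted p = 0.00374 and 1.2 ± 0.32, adjusted p = 0.0048). FLG averaged 52 ± 3.95 CPM at 24 h and 37.1 ± 1.77 at 0 h (0.49 ± 0.14, adjusted p = 0.0101), and without the C library of HaCaT at 24 h its change was 0.44 (adjusted p = 0.0525). SPRR1A was higher by 0.66 ± 0.19 (adjusted p = 0.00913) with overlapping groups, and it was not called without the A library at 0 h or the C library at 24 h of HaCaT (0.48, adjusted p = 0.0808, and 0.43, adjusted p = 0.113). The 3 members that fell were the proline-rich gene SPRR2D, 3.08-fold lower, TCHH, 2.35-fold lower, and KLK10, 1.4-fold lower (-1.63 ± 0.27, adjusted p = 4.49e-05, -1.23 ± 0.24, adjusted p = 0.000271 and -0.49 ± 0.12, adjusted p = 0.00221). In each of these 3 all 24 h libraries lay below all 0 h libraries.

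In TIGK 8 of the 39 members were called at 24 h, 7 higher and 1 lower (20.5%), against 32.3% of all genes (15.3% higher and 17% lower). Without the B library of TIGK at 0 h 5 members were called. Fibroblast markers summed to 389 to 434 CPM at 24 h and 235 to 273 CPM at 0 h, and their part was not tested. SPRR1B averaged 49.5 ± 17.1 CPM at 24 h and 26.5 ± 3.75 at 0 h, 1.87-fold higher (0.90 ± 0.18, adjusted p = 0.000367). SPRR1A and periplakin (PPL) were higher by 0.89 ± 0.25 (adjusted p = 0.00687) and 0.45 ± 0.08 (adjusted p = 0.000137). ABCA12 averaged 25.1 ± 1.76 CPM at 24 h and 11.8 ± 2.17 at 0 h, 2.13-fold higher (1.09 ± 0.15, adjusted p = 5.95e-06). All 24 h libraries lay above all 0 h libraries for these 4 genes. KRTDAP was higher by 1.07 ± 0.31 (adjusted p = 0.00994), and not called without the A library at 0 h or the C library at 24 h of TIGK (0.91, adjusted p = 0.0501, and 0.68, adjusted p = 0.116). TGM5 held 36 counts at 24 h and 9 at 0 h (2.35 ± 0.88, adjusted p = 0.0431). Its call did not hold when the C library of HaCaT at 0 h, the A, B or C library of HaCaT at 24 h, the B or C library of TIGK at 0 h, the A library of TIGK at 6 h or the A, B or C library of TIGK at 24 h was left out (1.82 to 2.58, adjusted p = 0.0508 to 0.163), and its value was 3.09 without the A library of TIGK at 0 h. HRNR was called on 5 counts at 24 h and none at 0 h (adjusted p = 0.0338), with both group means under the floor of 3 counts per library, so no fold is given, and the call did not hold without the A library at 24 h or any 0 h library of TIGK (adjusted p = 0.0637 to 0.282). FLG was lower, at 0.637 ± 0.256 CPM at 24 h and 1.39 ± 0.676 at 0 h, on 29 and 85 counts with overlapping groups (-1.13 ± 0.33, adjusted p = 0.0105). Without the B library of TIGK at 0 h the FLG change was -0.84 (adjusted p = 0.0754), without the C library of TIGK at 24 h -0.84 (adjusted p = 0.0703), and in a fit of the 6 TIGK libraries alone -1.10 (adjusted p = 0.123). SPRR1A, ABCA12 and KRTDAP were called higher at 24 h in both lines.

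**Figure D4:**
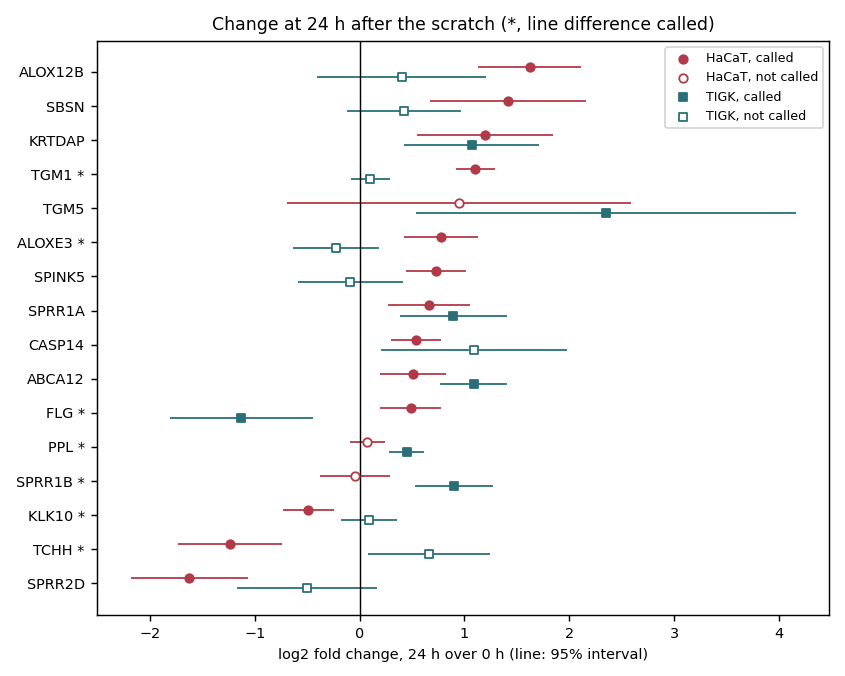
Log2 fold change of 24 h over 0 h (x axis; lines are 95% intervals) in HaCaT (circles) and TIGK (squares) for the 16 members called in at least 1 line, HRNR left out; filled symbols were called and an asterisk marks a called difference between the lines. FLG lies right of 0 in HaCaT and left of it in TIGK, and TCHH and SPRR2D lie farthest left in HaCaT.

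The 24 h response itself differed between the lines for 7 of the 39 members, against 13.5% of all tested genes (7.07% higher and 6.45% lower). Both lines' changes share no library. A positive difference means a higher change in HaCaT, and 3 were positive. The log2 change of FLG was 0.49 in HaCaT and -1.13 in TIGK, a difference of 1.61 ± 0.36 (adjusted p = 0.00305). For TGM1 it was 1.1 in HaCaT and 0.10 in TIGK, a difference of 1.0 ± 0.13 (adjusted p = 6.01e-06). For ALOXE3 it was 0.78 in HaCaT and -0.23 in TIGK, a difference of 1.0 ± 0.26 (adjusted p = 0.0111). The other 4 were negative. For TCHH the change was -1.23 in HaCaT and 0.66 in TIGK, a difference of -1.89 ± 0.37 (adjusted p = 0.000949). SPRR1B stood at -0.04 in HaCaT and 0.90 in TIGK, a difference of -0.94 ± 0.24 (adjusted p = 0.00943). PPL and KLK10 differed by -0.38 ± 0.11 (adjusted p = 0.0288) and -0.58 ± 0.18 (adjusted p = 0.0288). The PPL difference did not hold without the A library of HaCaT at 0 h or 24 h or the A or B library of TIGK at 0 h or 24 h (-0.30 to -0.38, adjusted p = 0.053 to 0.0862). That of KLK10 did not hold without the A or B library of HaCaT at 0 h, the B library of HaCaT at 24 h, or the B or C library of TIGK at 0 h or 24 h (-0.45 to -0.55, adjusted p = 0.061 to 0.0879), or without both 24 h C libraries (-0.55, adjusted p = 0.0806). The differences for ALOX12B, SPINK5 and IVL, at 1.22 ± 0.46 (adjusted p = 0.0829), 0.82 ± 0.28 (adjusted p = 0.0529) and -0.95 ± 0.32 (adjusted p = 0.051), did not pass the threshold.

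Other genes of the barrier were counted from lists chosen by role, with earlier results of these data known. Between the lines 62.6% of all tested genes were called at 0 h (29.3% higher and 33.3% lower). At 24 h the share was 61.7% (28.6% higher and 33.1% lower). For 24 h against 0 h, 31.4% of all tested genes were called in HaCaT and 32.3% in TIGK. Of 29 late cornified envelope and other epidermal differentiation complex genes 9 were tested. Between the lines 7 were higher in HaCaT and 1 lower at 0 h (88.9% called), and 6 higher and 0 lower at 24 h (66.7%). At 24 h against 0 h, 3 were higher and 1 lower in HaCaT (44.4% called), and 1 was higher and 0 lower in TIGK (11.1%). PRR9, a proline-rich gene of the complex, averaged 10.9 ± 0.24 CPM in HaCaT and 0.221 ± 0.167 in TIGK, a log2 fold change of 5.7 (adjusted p = 4.69e-09). These values are of 1 time, and the highest mean of PRR9 in any group was 13.7 CPM. LCE3E, a late envelope gene, averaged 1.01 ± 0.218 CPM at 24 h and 4.03 ± 0.827 at 0 h in HaCaT, and was lower at 24 h (-1.99, adjusted p = 0.00172). PGLYRP3, a peptidoglycan recognition protein encoded in the complex, was higher at 24 h in both lines, by 0.94 (adjusted p = 0.00677) in HaCaT and 1.07 (adjusted p = 0.0113) in TIGK. Of 11 suprabasal keratin and corneodesmosome genes 7 were higher in HaCaT and 1 lower at 0 h (72.7% called). At 24 h against 0 h, 7 were higher in HaCaT (63.6%) and 6 in TIGK (54.5%), with none lower. KRT1, the suprabasal keratin of cornifying skin, averaged 2535 ± 469 CPM at 24 h and 923 ± 278 at 0 h in HaCaT, and 127 ± 32.6 and 35.3 ± 5.96 in TIGK (1.46, adjusted p = 6.21e-06 and 1.85, adjusted p = 6.48e-07). Its partner KRT10 was higher at 24 h by 1.21 (adjusted p = 0.00179) in HaCaT and 1.94 (adjusted p = 1.15e-05) in TIGK, and the plakophilin PKP1 by 0.58 (adjusted p = 3.03e-06) and 0.47 (adjusted p = 5.21e-05).

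Of 18 tested other lipid genes 7 were higher and 5 lower in HaCaT at 0 h, a share of 66.7% called, near that of all genes. At 24 h 4 were higher and 2 lower in HaCaT, a share of 33.3%, where 61.7% of all genes were called. At 24 h against 0 h, 6 were higher and 1 lower in HaCaT, 38.9% against 31.4% of all genes. In TIGK 7 were higher and 2 lower, 50% against 32.3%. SLC27A4, one of the lower genes and a fatty acid transporter whose loss causes ichthyosis prematurity syndrome, was lower at 24 h in both lines, with log2 changes of -1.09 (adjusted p = 2.6e-10) in HaCaT and -1.45 (adjusted p = 9.33e-12) in TIGK. UGCG, which makes glucosylceramide, was higher at 24 h in both, by 0.68 (adjusted p = 0.000182) and 0.46 (adjusted p = 0.00633). ELOVL1, an elongase of very long fatty acids, was higher in HaCaT at 0 h by 0.40 (adjusted p = 1.09e-05). Of 17 tested other proteases and inhibitors 9 were higher and 3 lower in HaCaT at 0 h, and 8 higher and 5 lower at 24 h. These were 70.6% and 76.5%, where 62.6% and 61.7% of all genes were called. At 24 h against 0 h, 2 were higher and 4 lower in HaCaT, and 5 were higher and 1 lower in TIGK. Both shares were 35.3%, near the 31.4% and 32.3% of all genes. ST14, the membrane protease matriptase, averaged 399 ± 16.3 CPM in HaCaT and 205 ± 21.9 in TIGK (0.96, adjusted p = 1.39e-10), and SPINT2, an inhibitor of matriptase, 198 ± 9.82 and 351 ± 17.5 CPM (-0.83, adjusted p = 7.11e-10). Cathepsin D (CTSD) was higher in HaCaT by 0.96 (adjusted p = 1.29e-08). The values of ST14, SPINT2 and CTSD are each of 1 time, and the highest group mean of SPINT2 was 385 CPM. Of 9 filaggrin-processing and urocanate genes 3 were higher and 4 lower in HaCaT at 0 h, and 2 higher and 4 lower at 24 h. These were 77.8% and 66.7%, against 62.6% and 61.7% of all genes. At 24 h against 0 h, 3 were higher and 4 lower in HaCaT, and 4 were higher and 2 lower in TIGK. The shares were again 77.8% and 66.7%, against 31.4% and 32.3% of all genes. FURIN, which can cut the end of profilaggrin, was higher in HaCaT at 0 h by 1.4 (adjusted p = 2.35e-13) and lower at 24 h than at 0 h in HaCaT (-0.72, adjusted p = 2.1e-07) and in TIGK (-0.36, adjusted p = 0.00166). The calpain gene CAPN1 was lower in HaCaT at 24 h, with a log2 fold change of -0.54 (adjusted p = 1.53e-06), and ARNT, a transcription factor needed for filaggrin processing in mouse skin, was higher at 24 h in both lines by 0.53 (adjusted p = 2.74e-05) and 0.56 (adjusted p = 1.73e-05).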

How the data were processed

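Bulk RNA was sequenced from HaCaT and TIGK cells. The submitters' processing notes name featureCounts 1.5.0-p3, StringTie 1.3.3b, the aligner HISAT2 2.0.5 and the build hg38; their settings and the strand setting are not given in the sources used here. The deposited counts are whole reads per gene, and the deposited FPKM values are the authors' levels scaled by gene length and library size.

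Counts were fitted for all 18 libraries with edgeR 4.0.16 (R 4.3.3): filterByExpr with a minimum count of 10 kept 17409 of 58735 genes, followed by TMM scaling, 6 group means, 12 residual degrees of freedom and glmQLFTest, with Benjamini-Hochberg adjustment over all tested genes and a prior count of 0.125. A difference between lines in a response is an interaction of these means. A floor of 3 counts per library covers counting error only. Alternatives used DESeq2 1.42.0, limma 3.58.1 on log2(FPKM + 1) and log2(FPKM + 0.1), no filter, the groups compared alone, other size factors and libraries left out. The fit was tested on simulated data: for HaCaT at 24 h against 0 h over 17409 genes it recovered 84% of genes raised 2-fold and 76% of genes lowered 2-fold. The changed genes were drawn from those with a mean above 1 CPM. The rates therefore do not cover members below it, such as TGM5 and RPTN. Libraries of the same column letter deviated together between TIGK 6 h and 0 h (r = 0.225, 0.199 and 0.577 for A, B and C, across genes). This is taken from the data and not from the labels. Deviations are from the mean of a group's 3 libraries, so one shared by the C libraries also moves A and B. Pairing of A and B apart from C was not tested. In HaCaT and for 24 h no such pairing was seen (-0.0771 to 0.0775). The members and lists were chosen with earlier results of these data known. Values of every library are given for up to 5 members of each role class called in at least 1 of 9 comparisons, by highest group mean CPM, and up to 3 genes of each other list are named by the same rule. Other members are given by means, ranges or counts. The promoters printed were chosen after the values were seen.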

Additional observations from a re-analysis of the deposited data

Results flagged for a closer look

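Differences between the lines in a response passed the interaction test for 8 pairs of gene and time, all by edgeR with adjustment over all tested genes and 3 libraries a group. At 6 h the difference for TGM1 was -0.80 ± 0.13 (adjusted p = 0.00213). At 24 h the positive differences were 1.61 for FLG, 1.0 for TGM1 and 1.0 for ALOXE3. The negative ones were -1.89 for TCHH, -0.94 for SPRR1B, -0.38 for PPL and -0.58 for KLK10. The FLG value rests on 29 and 85 counts in TIGK at 24 h and 0 h. Groups of 3 libraries are too small for a search for single outlying libraries.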

How the results depend on the processing

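Of 123 calls of a member in a comparison, 101 were lost under no alternative that gave them a value, single libraries left out included. Another 22 were lost under at least 1, and none changed sign. In fits of the groups compared alone 116 of the calls were the same and 2 were lost. The remaining calls had no value in those fits. Lost with limma but with no library left out were CASP14 in HaCaT at 24 h and the 24 h difference of SPRR1B on log2(FPKM + 0.1), at 0.56 (adjusted p = 0.0997) and -0.88 (adjusted p = 0.0507), and FLG2 between lines at 6 h on log2(FPKM + 1), at 0.10 (adjusted p = 0.0795). Numbers of members called moved by more than 1.5 times in these cases. HaCaT at 6 h had 3 members called without the filter and 4 in a fit of the groups compared alone, where the fit of all libraries called 1. TIGK at 6 h had 0 in the groups alone and with limma on log2(FPKM + 1) and log2(FPKM + 0.1), against 1, and 1 with DESeq2. TIGK at 24 h had 5 in the groups alone, against 8. The 6 h difference between lines had 3 with DESeq2 and 5 without the filter, against 1, and the 24 h difference had 12 with limma on log2(FPKM + 1), against 7. The causes were not tested. With 1 library left out, members called ranged from 29 to 31, 30 to 31 and 29 to 30 between lines at 0, 6 and 24 h, 0 to 1 and 11 to 14 in HaCaT at 6 h and 24 h, 0 to 1 and 5 to 9 in TIGK, and 1 to 2 and 6 to 9 for the differences; the 6 h difference had 2 without TIGK 0 h A or TIGK 6 h C. Without both 24 h C libraries, an alternative chosen after seeing the data, HaCaT at 24 h had 8 higher and 6 lower. Over all genes, 35 called in HaCaT at 6 h became 104 with DESeq2, 130 without the filter, 200 in the groups alone, 77 without TIGK 0 h C and 6 h C, and 18 with limma on log2(FPKM + 0.1). The 630 of TIGK at 6 h became 359 in the groups alone, and the 131 of the 6 h difference became 290 with DESeq2, 293 without the filter and 86 with limma on log2(FPKM + 0.1). Other size factors moved the median of all genes by at most 0.0211 (log2). The labels do not tie the column letters to replicate numbers. For TIGK at 6 h libraries of the same letter deviated together, with values for A, B and C that are not independent. There a replicate block by letter kept KLK10 called (0.46, adjusted p = 0.027) and called 786 of all genes, against 630. Over all comparisons, a fit with the letter as a replicate block called 31, 31 and 30 members between lines, 1 and 14 in HaCaT, 1 and 9 in TIGK and 1 and 9 for the differences, and 70 and 212 of all genes in HaCaT at 6 h and for the 6 h difference. Genes with fewer than 10 reads in a group have log2 values that 1 library can move.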
